A study of Mus musculus with 12 samples.

Results

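The genes described here are the chemokines Ccl2, Ccl3, Ccl4, Ccl6, Ccl7, Ccl9, Ccl12, Cxcl2, Cxcl16 and Pf4, 10 of the 54532 genes in the deposited tables, followed across macrophages in which integrin α5 (ITGA5) was or was not neutralized, on plastic or on fibronectin. They were chosen by name, with their levels and their differences in these libraries already known, so the values below describe them and give no independent support to any pattern they were chosen for. Each of the 10 had 1 row in each table, and each passed the filter on low counts in every comparison. All cells were macrophages grown from the bone marrow of wild-type C57BL/6J mice aged 2 to 3 months, kept in 15% serum with CSF-1 (12 ng/ml, then 120 ng/ml), the growth factor that drives marrow cells to become macrophages. They were then passaged onto uncoated plates or onto plates coated with fibronectin (10 µg/ml), a matrix protein that ITGA5 binds as one chain of the α5β1 receptor. Isotype IgG or an anti-ITGA5 neutralizing antibody was added at 10 µg/ml for 24 h. Crossing antibody and coating gives 4 groups of 3 libraries: on uncoated plates, IgG without fibronectin and its counterpart anti-ITGA5 without fibronectin, and on coated plates, anti-ITGA5 with fibronectin and its control, IgG with fibronectin. Serum, which itself carries fibronectin, and CSF-1 were shared by all groups, and no group was left without an antibody. The paper calls the replicates biologically independent experiments. The labels do not say that they came from separate animals, so the p-values measure the spread between these libraries.

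Chemokines are small secreted proteins that bind heparan sulfate and draw leukocytes along a gradient through G protein-coupled receptors. Ccl2, Ccl7 and Ccl12 act on Ccr2 and recruit monocytes, Ccl3 and Ccl4 are macrophage inflammatory proteins, of which Ccl3 acts on Ccr1, and Ccl6 and Ccl9 are rodent chemokines that act on Ccr1. Cxcl2 attracts neutrophils through Cxcr2, Cxcl16 is a membrane-bound ligand of Cxcr6 that also takes up oxidized lipoprotein and is shed by Adam10, and Pf4 (platelet factor 4) is best known as a protein of platelet granules that binds heparin, although macrophages also transcribe it.

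The deposited tables give FPKM (counts divided by gene length and by a library total that the authors scaled), which is the level quoted here, and raw counts, on which differences were tested. The total number of counts on genes ranged from 12954342 to 22075432 per library. The library anti-ITGA5 without fibronectin replicate 2 stood apart: it had the lowest total, counts on 21123 genes against 19542 to 20426 in the other 11 libraries, and the lowest correlation with its group (r = 0.981 across genes, against 0.986 or more elsewhere). Macrophage markers were high in every library, with Lyz2, Cd68 and Csf1r at mean levels of at least 5256, 981 and 296 FPKM in the 4 groups. Ly6g and Retnlg (neutrophils) and Ncr1 (natural killer cells) had no count in any library, and the 5 fibroblast and 4 dendritic cell markers stayed under 1 FPKM. Other neutrophil markers were detected at low counts, among them S100a8 with 17 to 44 and Mpo with 3 to 21 counts per library. In these bulk libraries, fewer cells of a type and less RNA per cell cannot be told apart.

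The 10 genes lie in 3 clusters and 1 single locus of the GRCm38 genome. Ccl2 (ENSMUSG00000035385, chr11:82035571-82037453, plus strand), Ccl7 (ENSMUSG00000035373, chr11:82045712-82047525, plus) and Ccl12 (ENSMUSG00000035352, chr11:82101845-82103400, plus) follow each other at distances of 8.26 kb and 54.3 kb. Further along the same chromosome are Ccl9 (ENSMUSG00000019122, chr11:83572919-83578636, minus), Ccl6 (ENSMUSG00000018927, chr11:83587882-83593087, minus), Ccl3 (ENSMUSG00000000982, chr11:83647844-83649355, minus) and Ccl4 (ENSMUSG00000018930, chr11:83662584-83664683, plus). Ccl9 and Ccl6 are 9.25 kb apart, and Ccl3 and Ccl4 are 13.2 kb apart. Pf4 (ENSMUSG00000029373, chr5:90772435-90773383, plus) and Cxcl2 (ENSMUSG00000058427, chr5:90903871-90905938, plus) lie 130.5 kb apart, and Cxcl16 (ENSMUSG00000018920, chr11:70453983-70459984, minus) stands alone. On the opposite strand, Ccl2 overlaps Gm17268 (at most 2 counts per library), Ccl6 overlaps E230016K23Rik (at most 15) and Cxcl16 overlaps Zmynd15 (at most 28), against at least 11343, 6684 and 192 counts on the chemokines. Of the 100-base windows of the transcripts, 69 of 2259 in Cxcl2 (3.05%) also occur in Cxcl3, and none of the other 9 genes shares a window with another gene.

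RefSeq promoter entries on GRCm38.p6 were matched to 6 of the 10 genes (Ccl3, Ccl6, Ccl9, Ccl12, Cxcl2 and Pf4), and 4 are shown because they span the patterns that follow: the gene with the highest fold difference with the antibody, a moderate one, the gene that was lower and the gene that was higher with the coating. Each run reads 5′ to 3′ and ends at the base before the RefSeq transcription start, except the Cxcl2 run, which ends 28 bases short of it, and capitals mark matches to 1 of 5 motifs searched on both strands. The motifs were GGANTTTCC (a core bound by NF-kB), TGANTCA (AP-1), TTGCNNAA (C/EBP), AANNGAAA (the core of interferon regulatory factor sites) and TATAAA (the TATA box).
Ccl12 (chr11:82101595-82101844, plus strand): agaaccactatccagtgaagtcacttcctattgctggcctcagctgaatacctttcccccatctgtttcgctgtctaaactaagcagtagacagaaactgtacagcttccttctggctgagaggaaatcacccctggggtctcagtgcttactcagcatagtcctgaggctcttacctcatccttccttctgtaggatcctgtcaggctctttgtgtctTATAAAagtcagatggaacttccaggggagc
Ccl3 (chr11:83649379-83649628, minus strand): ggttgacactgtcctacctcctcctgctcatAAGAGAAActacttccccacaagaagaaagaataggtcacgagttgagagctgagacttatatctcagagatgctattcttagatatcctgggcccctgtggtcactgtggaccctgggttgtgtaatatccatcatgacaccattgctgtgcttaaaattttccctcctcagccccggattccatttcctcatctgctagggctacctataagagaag
Pf4 (chr5:90772185-90772434, plus strand): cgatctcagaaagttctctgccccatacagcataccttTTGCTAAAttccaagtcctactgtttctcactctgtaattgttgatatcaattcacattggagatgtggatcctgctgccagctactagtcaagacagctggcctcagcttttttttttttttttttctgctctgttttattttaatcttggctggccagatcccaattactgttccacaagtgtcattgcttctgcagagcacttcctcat
Cxcl2 (chr5:90903649-90903870, plus strand, without the 28 bases that the deposited tables place inside the gene): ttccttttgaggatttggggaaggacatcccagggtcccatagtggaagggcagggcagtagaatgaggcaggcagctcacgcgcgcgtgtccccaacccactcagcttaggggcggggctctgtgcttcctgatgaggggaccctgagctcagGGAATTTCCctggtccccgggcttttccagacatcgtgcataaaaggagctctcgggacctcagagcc
In Ccl12 the match is a TATAAA that begins 31 bases before the start, in Ccl3 an interferon regulatory factor core at 219 bases, in Pf4 a C/EBP match at 212 bases, and in Cxcl2 an NF-kB core at 96 bases, of which the last 28 are not printed. Of the 2 promoters not shown, Ccl9 held 1 AP-1 match and 3 TATAAA matches and Ccl6 held none. Over the 250 bases before the start of all 32851 promoter entries, the NF-kB core occurred in 1.07%, the AP-1 motif in 6.75%, the C/EBP motif in 9.56%, the interferon regulatory factor core in 21.3% and TATAAA in 12.4%. A match is a string of letters and no evidence of binding, and a missing match says only that these letters are not in this window.

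The levels of the 10 genes spanned more than 2 orders of magnitude. In IgG without fibronectin, Ccl2 was at 605 ± 29.9 FPKM (SD, n = 3), Pf4 at 572 ± 61.0, Ccl7 at 513 ± 52.4, Ccl6 at 288 ± 2.27, Ccl9 at 154 ± 3.13, Ccl4 at 142 ± 9.30 and Ccl3 at 110.3 ± 14.7. Ccl12 followed at 9.72 ± 0.606 FPKM, Cxcl16 at 4.71 ± 0.729 and Cxcl2 at 2.50 ± 0.248. Among 22046 protein-coding genes, Ccl2, Pf4 and Ccl7 ranked 43, 46 and 57 by mean FPKM in this group, whereas Ccl12, Cxcl16 and Cxcl2 ranked 4479, 6808 and 8426. The ranges of Ccl2 and Pf4 overlapped, as did those of Pf4 and Ccl7, and every later neighbour in the order was separated. With anti-ITGA5, Ccl7 stood above Pf4 and Ccl4 above Ccl9, on both coatings and with no overlap of the libraries. Ccl2 and Ccl7 overlapped in both anti-ITGA5 groups. Ccl9 and Ccl3 overlapped in anti-ITGA5 without fibronectin, and Ccl9 and Ccl4 in IgG with fibronectin. Ccl12, Cxcl16 and Cxcl2 kept the last 3 places in all 4 groups.

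**Figure D1:**
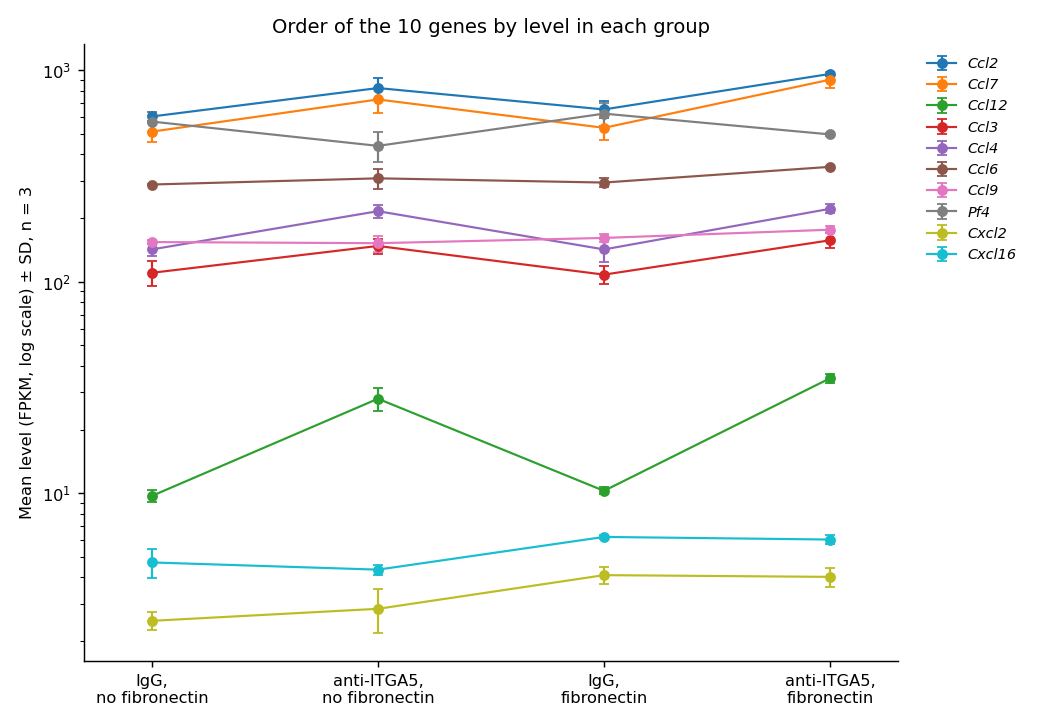
Mean level of the 10 genes (FPKM, log scale) in the 4 groups, with the SD of 3 libraries as error bars and lines that join the same gene only as a guide. Pf4 (572 and 624 FPKM in IgG, 439 and 498 FPKM in anti-ITGA5) crosses Ccl7, Ccl4 crosses Ccl9, and Ccl12 is the gene with the widest step.

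ITGA5 neutralization was first compared with IgG within each coating, which asks whether the macrophage's chemokine transcripts differ when the receptor is blocked. Ccl12, Ccl4, Ccl7, Ccl2 and Ccl3 were higher and Pf4 was lower with the antibody, on plastic and on fibronectin alike. Ccl6 and Ccl9 were higher with the antibody on fibronectin, and Cxcl2 and Cxcl16 passed the threshold on neither coating. Each comparison was fitted on the counts of all genes in its 6 libraries with the quasi-likelihood test of edgeR, Benjamini-Hochberg adjusted over the genes tested, with genes called at an adjusted p of 0.05 or less. Standard errors are written SE. Without fibronectin 5 of the 10 were called higher and 1 lower, against 11.0% of the 12924 genes tested called higher and 9.79% called lower. With fibronectin 7 were called higher and 1 lower, against 14.4% and 13.2% of 12916 genes. The median log2 fold change of the 10 was 0.31 without and 0.39 with fibronectin, and over all genes tested it lay within 0.01 of 0 on each coating. Since the genes were chosen with these values known, the counts describe them and compare nothing. Over all genes, 1265 calls were lower and 1419 were higher on plastic, and on fibronectin 1699 and 1866. Scaling by total counts in place of TMM gave 940 and 1838, and 1264 and 2407, while the number of the 10 called in each direction stayed at 5 and 1 without and 7 and 1 with fibronectin.

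**Figure D2:**
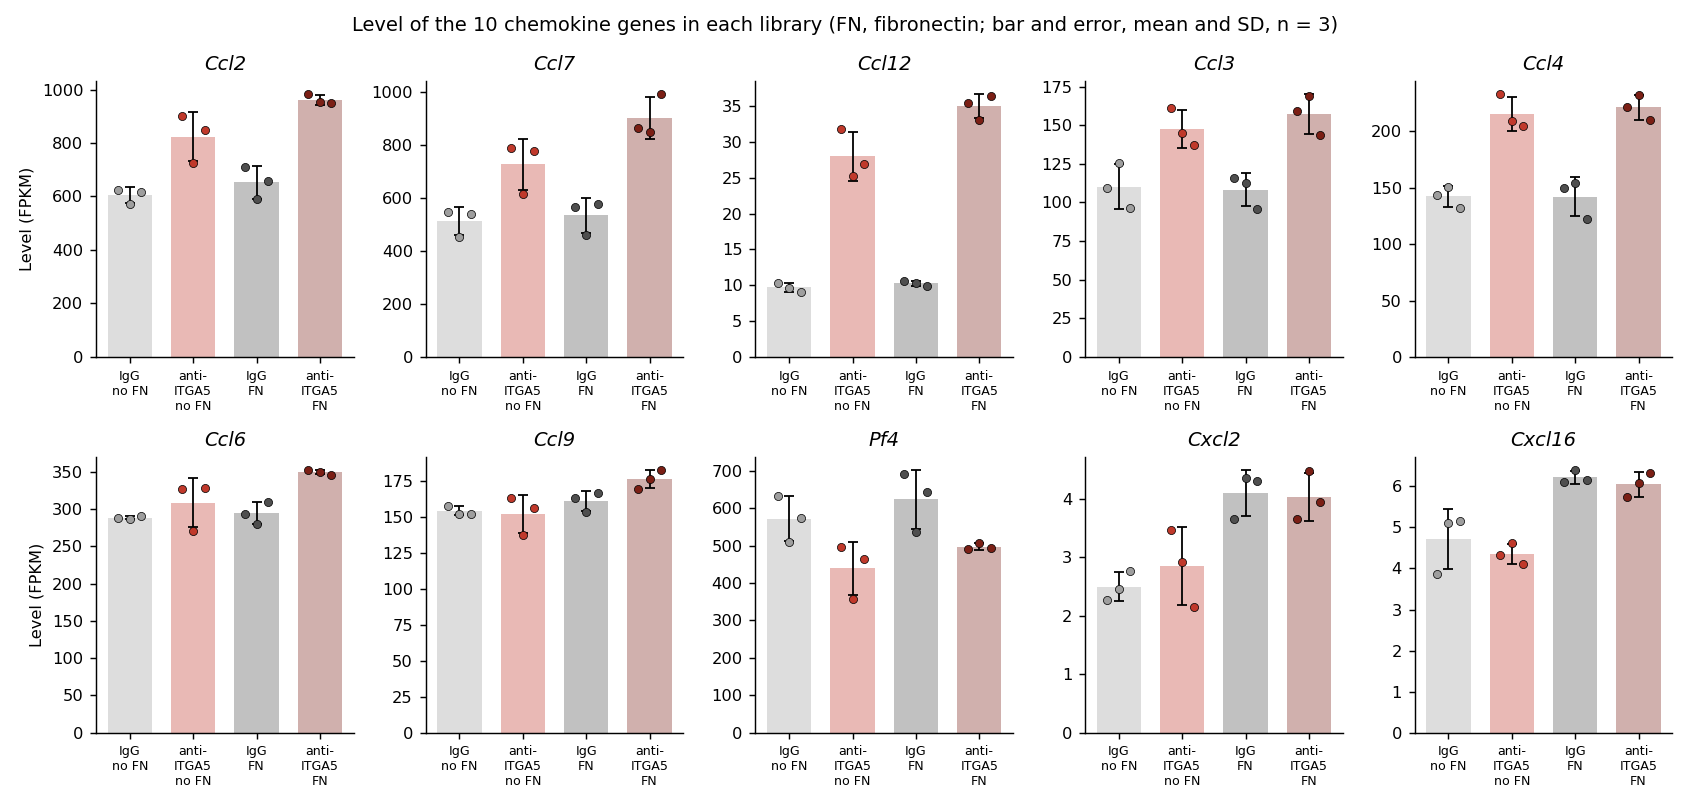
Level of each gene (FPKM, linear axes from 0) in every library, with the bar at the group mean and the error bar at the SD (n = 3). Ccl2, Ccl7, Ccl12, Ccl3 and Ccl4 sit higher and Pf4 sits lower in the anti-ITGA5 libraries on both coatings with no overlap, and Cxcl2 and Cxcl16 sit higher on fibronectin.

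Ccl12, a ligand of Ccr2 found in mice, showed the widest difference of the 10. Its level was 10.3, 9.69 and 9.14 FPKM in IgG and 31.8, 25.3 and 26.9 FPKM in anti-ITGA5 without fibronectin. It was 10.6, 10.4 and 9.84 FPKM in IgG and 35.5, 33.1 and 36.4 FPKM in anti-ITGA5 with fibronectin. All 6 anti-ITGA5 libraries lay far above all 6 IgG libraries. The antibody against IgG gave a log2 fold change of 1.53 (SE 0.119, adjusted p = 1.8e-05, edgeR) without and 1.76 (SE 0.0972, adjusted p = 5.4e-07, edgeR) with fibronectin, which is 2.89 and 3.40 times the IgG level. These values rest on 86 to 370 counts per library, the smallest numbers behind any difference called with the antibody among the 10. The gene stayed called in all 15 alternatives on each coating, with log2 fold changes of 1.43 to 1.59 and 1.68 to 1.81.

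Ccl2, the main monocyte attractant of the family, was measured at 626, 571 and 618 FPKM in IgG and 902, 724 and 847 FPKM in anti-ITGA5 without fibronectin. On fibronectin it was measured at 711, 589.8 and 658 FPKM in IgG and 983, 953 and 949 FPKM in anti-ITGA5. The groups did not overlap on either coating. That is a log2 fold change of 0.45 (SE 0.0741, adjusted p = 0.00185, edgeR) without and 0.56 (SE 0.0566, adjusted p = 2.0e-05, edgeR) with fibronectin.

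Ccl7, which also acts on Ccr2 and lies next to Ccl2, was at 546, 452 and 539 FPKM in IgG and 790.3, 617 and 777 FPKM in anti-ITGA5 without fibronectin. With fibronectin the levels were 566, 459.6 and 578 FPKM in IgG and 866, 849.6 and 993 FPKM in anti-ITGA5. Every anti-ITGA5 library again exceeded every IgG library, but the lowest of them without fibronectin, replicate 2, was the library that stood apart. For Ccl7 the log2 fold change was 0.51 (SE 0.0957, adjusted p = 0.00395, edgeR) without and 0.75 (SE 0.0805, adjusted p = 2.9e-05, edgeR) with fibronectin. On log2 FPKM with limma, the call without fibronectin was lost for Ccl7 in each of 3 settings (adjusted p = 0.0502 to 0.108) and for Ccl2 in 1 of them (adjusted p = 0.0679).

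Within this cluster of Ccr2 ligands, the ratio of Ccl7 to Ccl2 FPKM was 0.846 ± 0.0462 (SD, n = 3) in IgG and 0.882 ± 0.0332 in anti-ITGA5 without fibronectin, and 0.818 ± 0.0528 and 0.940 ± 0.0923 with fibronectin, with ranges that overlapped without fibronectin. The ratio of Ccl12 to Ccl2 was 0.0161 ± 0.00116 in IgG and 0.0340 ± 0.00197 in anti-ITGA5 without fibronectin. With fibronectin it was 0.0158 ± 0.00150 and 0.0364 ± 0.00181. The ratio was higher in every anti-ITGA5 library than in every IgG library, and Ccl12 remained a small fraction of Ccl2 throughout.

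Ccl3 and Ccl4 encode the macrophage inflammatory proteins 1α and 1β, which are made together by activated macrophages. Ccl4 was at 144, 151 and 132 FPKM in IgG and 233, 209 and 205 FPKM in anti-ITGA5 without fibronectin. On fibronectin Ccl4 was at 150.1, 155 and 122 FPKM in IgG and 222, 232 and 210.3 FPKM in anti-ITGA5. The lowest anti-ITGA5 library lay well above the highest IgG library on each coating. Ccl4 thus had a log2 fold change of 0.61 (SE 0.0665, adjusted p = 1.5e-04, edgeR) without and 0.64 (SE 0.0747, adjusted p = 6.0e-05, edgeR) with fibronectin, and Ccl4 was called in all 15 alternatives on each.

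Ccl3 was at 109, 126 and 96.3 FPKM in IgG and 161, 145 and 137 FPKM in anti-ITGA5 without fibronectin, and at 116, 113 and 95.8 FPKM and 159, 169 and 143 FPKM with fibronectin. The groups were separate, although by a smaller margin than for Ccl4. Ccl3 had a log2 fold change of 0.43 (SE 0.0928, adjusted p = 0.00859, edgeR) without and 0.54 (SE 0.0734, adjusted p = 1.9e-04, edgeR) with fibronectin. Without fibronectin, the call was lost without IgG replicate 1 (log2 fold change 0.42, adjusted p = 0.0518, edgeR) and on log2 FPKM with limma (adjusted p = 0.0592 to 0.122). The ratio of Ccl3 to Ccl4 FPKM was 0.773 ± 0.0540 in IgG and 0.684 ± 0.0140 in anti-ITGA5 without fibronectin, and 0.762 ± 0.0288 and 0.709 ± 0.0242 with fibronectin, so Ccl3 stayed below Ccl4 in all 12 libraries.

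Ccl6 and Ccl9, the rodent ligands of Ccr1, are abundant in macrophages at rest. Ccl6 was at 288, 287 and 291 FPKM in IgG and 327, 270.4 and 328 FPKM in anti-ITGA5 without fibronectin, where replicate 2 of the antibody group fell below IgG and the other 2 lay above it. On fibronectin Ccl6 was at 294, 280.0 and 309.9 FPKM in IgG and 352, 350.1 and 346 FPKM in anti-ITGA5, with no overlap. Its log2 fold change was 0.10 (SE 0.0687, adjusted p = 0.336, edgeR) without and 0.25 (SE 0.0427, adjusted p = 0.00108, edgeR) with fibronectin. Without the library that stood apart, the first value became 0.18 (adjusted p = 0.00187, edgeR) and was called.

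Ccl9 was at 158, 152 and 152 FPKM in IgG and 163, 138 and 156 FPKM in anti-ITGA5 without fibronectin, and the groups overlapped. On fibronectin Ccl9 was at 163, 154 and 167 FPKM in IgG and 169.7, 177 and 183 FPKM in anti-ITGA5, where they were just separate. Its log2 fold change was -0.01 (SE 0.0615, adjusted p = 0.908, edgeR) without and 0.13 (SE 0.0442, adjusted p = 0.0489, edgeR) with fibronectin. The second value was called in 5 of 15 alternatives, and leaving out any 1 of the 6 libraries ended the call (adjusted p from 0.0515 without anti-ITGA5 replicate 1 to 0.209 without IgG replicate 2, edgeR).

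Pf4 was the one gene of the 10 that was called lower with the antibody. It was at 632, 509.9 and 575 FPKM in IgG and 495, 358 and 464 FPKM in anti-ITGA5 without fibronectin. On fibronectin Pf4 was at 692, 538 and 642 FPKM in IgG and 491, 507 and 494 FPKM in anti-ITGA5. The groups did not overlap, and without fibronectin the highest anti-ITGA5 library came close to the lowest IgG library. The log2 fold change was -0.38 (SE 0.108, adjusted p = 0.0306, edgeR) without and -0.33 (SE 0.0713, adjusted p = 0.00456, edgeR) with fibronectin. Without fibronectin the call was lost with DESeq2 (adjusted p = 0.0694) and without IgG replicate 1 (log2 fold change -0.30, adjusted p = 0.160, edgeR) or IgG replicate 3 (-0.37, adjusted p = 0.110, edgeR), and on log2 FPKM with limma it was lost on both coatings. Without the library that stood apart the value was -0.26 and remained called.

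Set against Ccl2, a gene of similar level, Pf4 had an FPKM ratio of 0.944 ± 0.0595 (SD, n = 3) in IgG and 0.531 ± 0.0308 in anti-ITGA5 without fibronectin. With fibronectin the ratio was 0.953 ± 0.0365 and 0.518 ± 0.0165. The 6 IgG libraries lay between 0.894 and 1.01 and the 6 anti-ITGA5 libraries between 0.495 and 0.549.

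Since Pf4 is a platelet gene, other markers of platelets and megakaryocytes were examined beside it. Ppbp, which encodes pro-platelet basic protein and is the neighbour of Pf4, was at 5.02, 5.53 and 4.58 FPKM in IgG and 1.68, 2.61 and 2.34 FPKM in anti-ITGA5 without fibronectin. With fibronectin Ppbp was at 6.77, 6.62 and 7.52 FPKM in IgG and 2.90, 3.57 and 4.19 FPKM in anti-ITGA5. Its log2 fold change was -1.19 (adjusted p = 0.00302, edgeR) without and -0.98 (adjusted p = 5.2e-04, edgeR) with fibronectin. Ppbp was thus lower on both coatings, as Pf4 was, at a far lower level per length. Of 7 markers, 2 were called lower (Ppbp and Treml1) and 1 higher (Gp1ba, at 2 to 16 counts per library) on each coating. The marker Gp1bb had no count in any library, and 5 of the 7, among them Gp9, Tubb1 and Itga2b, stayed under 1 FPKM. The summed level of the 7 was 9.92 to 11.8 FPKM in IgG and 6.05 to 7.75 FPKM in anti-ITGA5 without fibronectin, and 12.2 to 14.1 and 6.22 to 8.99 FPKM with fibronectin. It moved in the same direction as Pf4, and its part in the Pf4 difference was not tested.

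Cxcl2 and Cxcl16 were the least abundant of the 10. Cxcl2 was at 2.27, 2.46 and 2.76 FPKM in IgG and 3.47, 2.91 and 2.14 FPKM in anti-ITGA5 without fibronectin, and at 3.65, 4.35 and 4.30 FPKM and 3.66, 4.47 and 3.95 FPKM with fibronectin. Cxcl16 was at 3.87, 5.11 and 5.16 FPKM in IgG and 4.34, 4.61 and 4.11 FPKM in anti-ITGA5 without fibronectin, and at 6.10, 6.40 and 6.16 FPKM and 5.73, 6.08 and 6.33 FPKM with fibronectin. For both genes the IgG and anti-ITGA5 libraries overlapped on each coating. The log2 fold changes of Cxcl16 with the antibody were -0.11 (SE 0.121) and -0.04 (SE 0.0778), and those of Cxcl2 were 0.19 (SE 0.189) and -0.03 (SE 0.122). When single libraries were left out, the values without fibronectin ran from -0.236 to -0.043 for Cxcl16 and from 0.016 to 0.365 for Cxcl2, and none was called.

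**Figure D3:**
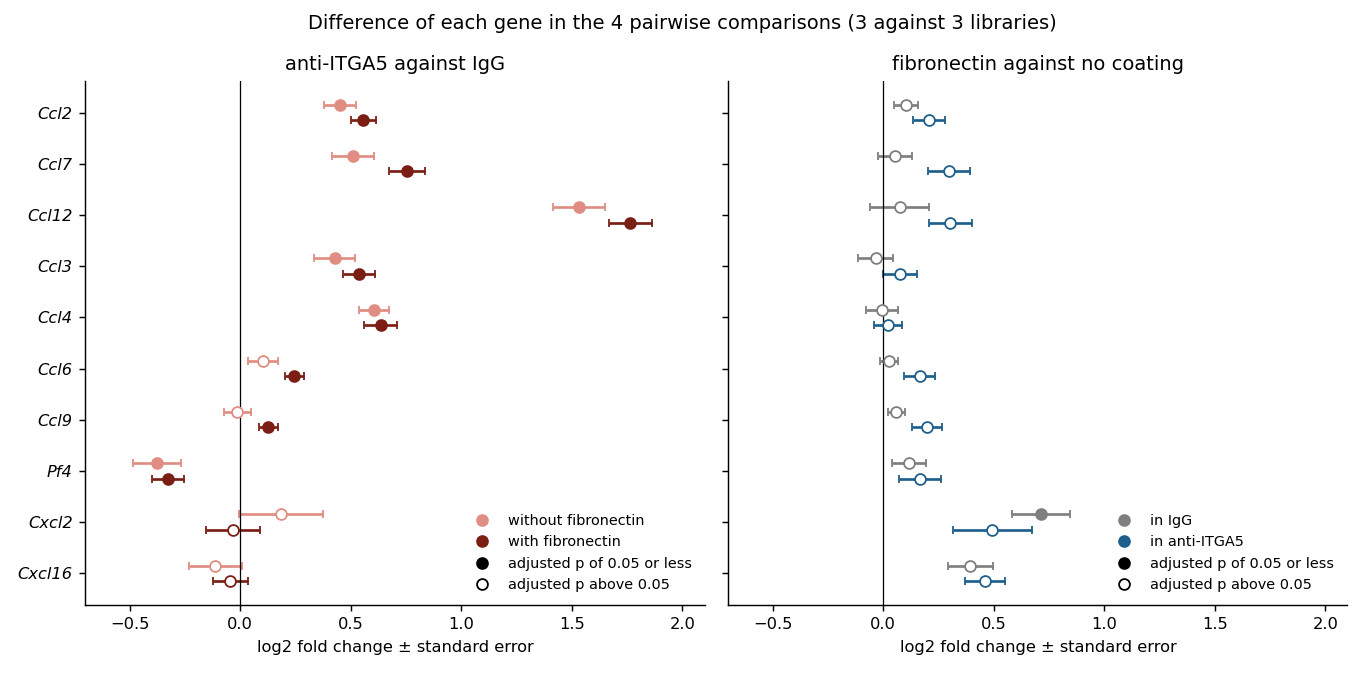
Log2 fold change of each gene with its SE as horizontal bars, for anti-ITGA5 against IgG (left) and for fibronectin against no coating (right), from fits of 3 against 3 libraries. Filled points passed an adjusted p of 0.05. Ccl12 lies at 1.53 and 1.76 on the left, Pf4 is the gene called below 0 there, and on the right Cxcl2 in IgG is the only filled point.

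Fibronectin was then compared with no coating within each antibody, which asks whether the ligand of the receptor by itself goes with a different level. Cxcl2 was called higher on fibronectin in IgG, and none of the other 9 genes was called in either antibody. An alternative fit with the replicate number as a block also called Cxcl16 and Pf4 higher in IgG (adjusted p = 0.00407 and 0.0219, edgeR). In IgG 0.325% of 12925 genes were called higher and 0.124% lower. In anti-ITGA5 0.0% of 12863 genes were called by edgeR, with 461 genes at an unadjusted p under 0.05 and 5 genes called by DESeq2.

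In IgG, all 3 Cxcl2 libraries with fibronectin lay above all 3 without it, and the log2 fold change was 0.71 (SE 0.131, adjusted p = 0.022, edgeR), or 1.64 times the level on plastic. The counts behind it were 81 to 100 without and 139 to 196 with fibronectin. The value stayed between 0.55 and 0.79 over the alternatives, but the call did not: it was made in 6 of the 14 that gave an adjusted p, and leaving out IgG without fibronectin replicate 1 (log2 fold change 0.65, adjusted p = 0.213, edgeR) or replicate 2 (0.70, adjusted p = 0.0756, edgeR), or IgG with fibronectin replicate 1 (0.79, adjusted p = 0.0563, edgeR) or replicate 3 (0.68, adjusted p = 0.0799, edgeR), ended it. In anti-ITGA5 Cxcl2 differed by 0.49 on the log2 scale (SE 0.177, adjusted p = 0.979, edgeR), again with no overlap between the coatings.

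Cxcl16 gave similar values in both antibodies. Its libraries with fibronectin, at 5.73 to 6.40 FPKM, all lay above its libraries without, at 3.87 to 5.16 FPKM. The log2 fold change was 0.39 (SE 0.103, adjusted p = 0.125, edgeR) in IgG and 0.46 (SE 0.0903, adjusted p = 0.584, edgeR) in anti-ITGA5, and neither was called. Every gene with at least 1 count in place of the filter gave adjusted p-values of 0.00614 and 0.00247 (edgeR).

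The CC chemokines differed less by coating. In IgG, the log2 fold changes of Ccl2, Ccl3, Ccl4, Ccl6, Ccl7, Ccl9 and Ccl12 lay between -0.03 and 0.10, and that of Pf4 was 0.12. In anti-ITGA5, Ccl12 was at 0.30 (SE 0.0988), Ccl7 at 0.30 (SE 0.0949), Ccl2 at 0.21 (SE 0.0715), Ccl9 at 0.20 (SE 0.0666), Ccl6 and Pf4 at 0.17, Ccl3 at 0.07 and Ccl4 at 0.02, and none was called (adjusted p of 0.979 or more, edgeR). For Ccl2, Ccl6, Ccl7, Ccl9 and Ccl12 the anti-ITGA5 libraries on the coatings did not overlap. The group without fibronectin holds the library that stood apart. For each of these genes, as for Cxcl2 and Cxcl16 in anti-ITGA5, an exact permutation test on FPKM gave p = 0.1. That is the smallest value this test can give at this group size. The share of all genes that separated in this way was not counted, so the separation is no shown coating difference.

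Whether the antibody difference itself depended on the coating was tested as an interaction over all 12 libraries, where 0.0223% of 13455 genes (3 genes) were called. None of the 10 was called. The interaction, the log2 fold change with fibronectin minus that without, was 0.24 (SE 0.145) for Ccl7, 0.23 (SE 0.148) for Ccl12, 0.14 (SE 0.0847) for Ccl6, 0.14 (SE 0.0788) for Ccl9 and -0.22 (SE 0.224) for Cxcl2, and the adjusted p was 0.9997 for all 10 (edgeR). The call of Ccl6 and Ccl9 with fibronectin and not without is therefore no shown difference between the coatings.

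Replicate libraries of a group also differed from each other, and 7 of the 10 genes did so in 2 sets. The deviation of each library from its group mean, in log2 CPM (counts scaled to the size of the library), was compared between genes over the 12 libraries. Ccl2, Ccl7, Ccl6, Ccl9 and Pf4 deviated together, with correlations of 0.73 to 0.96 over their 10 pairs, the highest between Ccl2 and Pf4. Without the library that stood apart the range was 0.49 to 0.93. Ccl3 and Ccl4 deviated together (r = 0.90, and 0.91 without that library). Between the sets the correlations ran from -0.51 to -0.06 (-0.78 to -0.12 without that library, and -0.47 to 0.0013 on log2 FPKM). Ccl12, Cxcl2 and Cxcl16 belonged to neither set: with the 7 genes Ccl12 had correlations of 0.34 to 0.59 (-0.32 to 0.49 without the library that stood apart), and Cxcl2 and Cxcl16 had -0.59 to 0.17 (-0.53 to 0.22 without it). Across group means and libraries together, Ccl2 and Pf4 had r = -0.40 and Ccl2 and Ccl7 had r = 0.97, so Pf4 moved with Ccl2 inside the groups and against it between IgG and anti-ITGA5. The sets were formed after the correlations were seen, and the points share library, depth and scaling, so these are descriptions without a test. Low values also recurred by replicate number. Replicate 3 was lowest for Ccl3 and Ccl4 in all 4 groups, and replicate 2 was lowest for Ccl7 in all 4. The 12 deviations of a gene may therefore not be independent points.

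**Figure D4:**
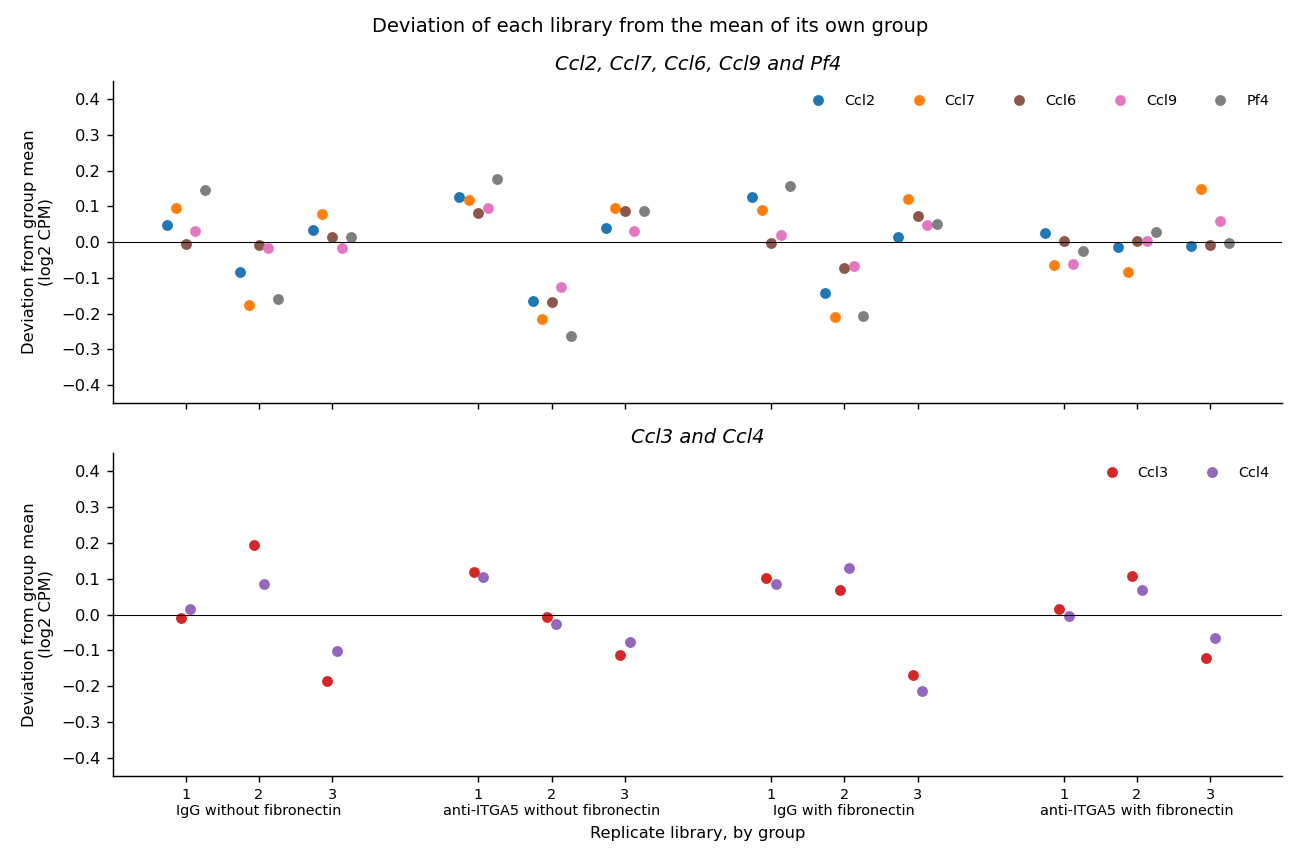
Deviation of each library from the mean of its own group (log2 CPM, vertical axis) for Ccl2, Ccl7, Ccl6, Ccl9 and Pf4 (top) and for Ccl3 and Ccl4 (bottom), with the 3 replicates of each group side by side in the order of their numbers. Genes of a panel sit together within most libraries, and replicate 2 of anti-ITGA5 without fibronectin is the lowest library for the top set.

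The genes whose levels most resembled those of a chemokine over the 12 libraries were found by Pearson correlation of log2 CPM among the 11686 genes whose count was 10 or more in each library, and are named for the 6 genes called on both coatings. Ccl12 was most like Sf3b3, Dap3 and Dnajc10 (r = 0.99 each). Ccl4 was most like Cdkn3, Ccna2 and Ckap2l (r = 0.99 each), all of which act in cell division, and Ccl3 was most like Rrm1, Haus1 and Itgb3bp (r = 0.98 each). Ccl2 was most like H2afy, Ddx39 and Ndufs1 (r = 0.98 to 0.96) and Ccl7 most like Ptbp1, Suclg1 and Cnbp (r = 0.97 to 0.96). Pf4 was most like Cmtm3, Fam162a and Bsg (r = 0.96 each). For Ccl6, Ccl9, Cxcl2 and Cxcl16 the highest correlation was 0.88 to 0.97. With 12 libraries in 4 groups, genes that differ by antibody can reach a high r whatever their function, and all points share depth and scaling.

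Of 28 other chemokine ligands, 24 stayed under 1 FPKM in every library and 7 were tested in each antibody comparison. Without fibronectin 2 were called lower and none higher, and with fibronectin 3 were called lower and none higher. Ppbp was called on both coatings. Cxcl14, a chemokine of epithelia and macrophages, was the one other ligand above 20 FPKM, with 53.5, 48.6 and 52.5 FPKM in IgG and 47.7, 34.3 and 46.7 FPKM in anti-ITGA5 without fibronectin. On fibronectin Cxcl14 was at 57.1, 51.1 and 56.2 and at 45.9, 41.8 and 49.0 FPKM. Its log2 fold change was -0.26 (adjusted p = 0.10, edgeR) and -0.27 (adjusted p = 0.00758, edgeR). The summed level of the 28 ligands was 40.9 to 68.5 FPKM per library, against 2265 to 3364 FPKM for the 10 genes described here. That sum of the 10 was 2265 to 2518 FPKM in IgG and 2493 to 3111 FPKM in anti-ITGA5 without fibronectin, and 2309 to 2712 and 3281 to 3364 FPKM with fibronectin.

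Of 9 receptors of these ligands 5 were tested, of which Ccr1 was called lower with the antibody on both coatings and none was called higher. Ccr1, the receptor of Ccl3, Ccl6 and Ccl9, was at 51.5, 48.3 and 49.2 FPKM in IgG and 39.3, 34.0 and 39.9 FPKM in anti-ITGA5 without fibronectin. With fibronectin it was at 55.1, 53.0 and 56.8 and at 38.8, 37.5 and 41.2 FPKM. Its log2 fold change was -0.39 (adjusted p = 0.00152, edgeR) without and -0.49 (adjusted p = 1.7e-05, edgeR) with fibronectin. Ccr2 had group means of 1.00 to 1.19 FPKM, and Cxcr2 had at most 1 count per library. Of the genes for release and storage, Adam10, which sheds Cxcl16, had a log2 fold change of -0.21 and -0.17 with the antibody (adjusted p = 0.0521 and 0.0524, edgeR). Adam17, another sheddase, had 0.04 and 0.01, and Srgn, the granule proteoglycan that binds chemokines, had 0.04 and 0.08.

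Of 22 regulators of chemokine transcription and mRNA decay, all tested, on plastic 7 were called lower and 1 higher, and on fibronectin 7 lower and 2 higher. Called lower on both coatings were Fos (log2 fold change -0.58 and -0.90), Junb (-0.42 and -0.38) and Atf3 (-0.19 and -0.36), which encode AP-1 and related factors, and Tnfaip3 (-0.28 and -0.37), an NF-kB target that restrains NF-kB. Zfp36l2, an mRNA decay factor, was also lower (-0.45 and -0.37), and Irf3 was higher on both (0.26 and 0.25). Of the other regulators above 20 FPKM, Cebpb (-0.28 and -0.47) and Nfkbia (-0.21 and -0.39), an inhibitor of NF-kB, were called lower with fibronectin, while Rela (-0.06 and -0.08) and Jun (0.05 and 0.05) were called on neither coating. Ccl2, Ccl3, Ccl4, Ccl7 and Ccl12 were thus higher in the groups where Fos, Junb, Atf3 and Tnfaip3 were lower, and no relation between them was tested.

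Of 7 macrophage markers, 4 were called lower with the antibody on each coating: Lyz2 (log2 fold change -0.51 and -0.46), Itgam (-0.47 and -0.31), Mertk (-0.48 and -0.41) and Cd68 (-0.20 and -0.17). Csf1r (-0.12 and -0.02), Fcgr1 (-0.30 and -0.14) and Adgre1 (0.02 and 0.10) were not called. The sum of the 7 was 8880 to 9715 FPKM in IgG and 5991 to 7374 FPKM in anti-ITGA5 without fibronectin, and 9451 to 9656 and 7229 to 7368 FPKM with fibronectin. Most of that sum was Lyz2, with group means of 7514 and 5256 FPKM without and 7809 and 5691 FPKM with fibronectin. Its part in the differences of the chemokines was not tested. The summed level of the 8 neutrophil markers stayed at 4.46 FPKM or less, of the 5 fibroblast markers at 0.324 FPKM or less, of the 4 dendritic cell markers at 0.213 FPKM or less and of the 3 lymphocyte markers at 0.481 FPKM or less in every library. Of the neutrophil markers, Mpo was called lower with the antibody on fibronectin (log2 fold change -0.94, adjusted p = 0.0499, edgeR), and S100a8 was called on neither coating.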

How the data were processed

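RNA-seq libraries of polyadenylated RNA (150 bp paired-end reads) from 12 cultures were used. Per the study's methods, the authors aligned reads to GRCm38.p6 with TopHat2 2.0.9, assembled them with Scripture and Cufflinks 2.1.1 and counted them per gene with HTSeq 0.6.1, and gave levels as FPKM. The strand setting and the annotation release are not given in the sources used here, and gene positions equalled GENCODE M21 for all 10 genes. The deposited raw counts per gene were tested, and the deposited FPKM per gene were used for levels. No column was left out.

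The genes and all gene lists were chosen with earlier results of these data known, as were the tests and the rule for genes named. That rule named all 10 genes, every other listed gene called in both antibody comparisons or with a group mean of at least 20 FPKM, and the 3 most similar genes of each of the 10 called on both coatings. Any further gene was named with its values in view. Some listed genes are not reported here and were left out of the counts and sums of their lists.

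Counts were filtered by filterByExpr (minimum count 10, minimum total 15), scaled by TMM and tested with edgeR 4.0.16 (R 4.3.3), each pairwise comparison on its 6 libraries and the interaction on 12. The SE is the log2 fold change divided by the square root of F. Alternatives were DESeq2 1.42.0, its size factors, total counts, genes with at least 1 count, all 12 libraries in one fit, a replicate block, limma 3.58.1 on log2(FPKM + 1) or log2(FPKM + 0.1) with at least 0.5 FPKM in 3 libraries or without that minimum, and each library left out. The scripts were tested on simulated data. Correlations within groups without the library that stood apart and on FPKM were added after seeing the data. Promoter sequences came from RefSeq (GRCm38.p6).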

Additional observations from a re-analysis of the deposited data

How the results depend on the processing

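With limma on log2(FPKM + 1), log2(FPKM + 0.1) and log2(FPKM + 1) without the FPKM minimum, 1688, 1507 and 1321 genes were called with the antibody without fibronectin (2684 with edgeR), of the chemokines 3, 3 and 2 higher (Ccl2, Ccl4 and Ccl12, the last without Ccl2) and 0, 0 and 0 lower. With fibronectin limma called 0 of the 10 lower in each of the 3, and 2285 and 2050 genes with the last 2 (3565 with edgeR). DESeq2 called 0 of the 10 lower without fibronectin. For fibronectin in IgG, 58 genes became 128 with DESeq2, 241 with genes of at least 1 count, 11 with all 12 libraries and 10, 16 and 11 with limma, and 1 of the 10 called became 0, 2, 0 and 0, 0 and 0. DESeq2 gave Cxcl2 no adjusted p there. For fibronectin in anti-ITGA5, DESeq2 called 5 genes, genes of at least 1 count gave 327 (2 of the 10, Ccl7 and Cxcl16), all 12 libraries 2 and limma on log2(FPKM + 0.1) 4. The interaction gave 65 with genes of at least 1 count, and 1 and 7 with the last 2 limma settings. The cause was not tested.

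Replicate numbers were shared by the groups, but the correlation of same-numbered libraries did not exceed 0.1 in every pair (-0.02 to 0.15), and nothing in the labels ties a number to an animal or day, so they were not treated as pairs. As a hint from the data, in 3 of the 4 comparisons (not fibronectin in anti-ITGA5) every library correlated best with its own number, with 0.03 to 0.15 for equal and -0.10 to 0.0048 for different numbers. With the replicate block, fibronectin in IgG gave 416 genes and 3 of the 10 (Cxcl2, Cxcl16 and Pf4), and fibronectin in anti-ITGA5 gave 2 genes. The block changed no other call of the 10.

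Leaving out each library gave 1473 to 3834 genes and 0 to 1 of the 10 called lower for the antibody without fibronectin, 9 to 101 genes and 0 to 1 of the 10 for fibronectin in IgG, 0 to 4 genes for fibronectin in anti-ITGA5 and 1 to 6 for the interaction.

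Differences near 0 that were not called changed sign. Total counts gave 0.027 for Ccl9 without and 0.0092 for Cxcl2 with fibronectin, and genes of at least 1 count gave 0.00028 for Ccl4 with the coating in IgG. Over left-out libraries the log2 fold change ran from -0.060 to 0.048 for Ccl9 with the antibody without fibronectin and from -0.11 to 0.037 for Cxcl2 with it. For the coating in IgG it ran from -0.12 to 0.071 for Ccl3, from -0.067 to 0.094 for Ccl4, from -0.013 to 0.065 for Ccl6 and from -0.028 to 0.16 for Ccl7, and in anti-ITGA5 from -0.017 to 0.078 for Ccl4. The interaction ran from -0.071 to 0.095 for Ccl4, from -0.0034 to 0.19 for Cxcl16 and from -0.070 to 0.15 for Pf4. With 3 libraries a group, the least abundant genes (81 to 421 counts per library for Cxcl2, Cxcl16 and Ccl12) had SEs of 0.0778 to 0.189 in the antibody comparisons. The SEs of the more abundant genes overlapped that range, from 0.0427 (Ccl6 with fibronectin) to 0.108 (Pf4 without fibronectin).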

Other observations

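Libraries with the same replicate number held the lowest level of a gene in several groups. Replicate 3 had the lowest Ccl3 and the lowest Ccl4 FPKM in all 4 groups, replicate 2 had the lowest Ccl7 in all 4 and the lowest Ccl2, Ccl6, Ccl9 and Pf4 in 3 of 4, and replicate 1 had the lowest Cxcl2 and Cxcl16 in 3 of 4. These counts were made after the values were seen.

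In the library anti-ITGA5 with fibronectin replicate 3, Irf7, a transcription factor of the interferon response, was at 15.6 FPKM, against 3.15 and 2.53 FPKM in replicates 1 and 2, and the chemokine Ccl5 was at 3.78 FPKM against 0.376 and 0.224 FPKM. Without fibronectin Irf7 was at 7.11, 7.67 and 8.88 FPKM in IgG and at 2.05, 2.54 and 2.80 FPKM in anti-ITGA5, where it was called lower (log2 fold change -1.67, adjusted p = 1.5e-05, edgeR), as was Ccl5 (-2.80, adjusted p = 0.00224, edgeR). With fibronectin neither was called. None of the 10 chemokines stood apart from its group in that library by a comparable factor, and the highest of them relative to its mates there was Ccl7, at 993 FPKM against 866 and 849.6 FPKM.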
